A study of Homo sapiens with 66 samples.

Results

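The MHC class I presentation genes described here are 9 genes, HLA-B, HLA-C, HLA-E, B2M, TAP1, TAP2, TAPBP, PSMB9 and NLRC5, out of the 58721 gene identifiers in each count table. They were named as a list, by symbol and with no measured value, and all 9 were matched and tested in every table. Poly(A) RNA was sequenced from A375, an established human melanoma line with an activating BRAF mutation, in 66 libraries that form 22 groups of 3 and 3 experiments. The labels give each experiment its own batch number, so every comparison was made inside 1 batch, and no test was made across experiments.

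All cells were A375 from ATCC grown in DMEM with 10% FBS. The Mediator experiment (42 libraries) had a control guide against GFP (GFPsg) and 2 guides each against MED12, MED19 and MED23 (sg1 and sg2), and each was given DMSO or 1 µM vemurafenib, an inhibitor of mutant BRAF, for 24 hours. The SOX10 experiment (12 libraries) combined GFPsg or MED23sg1 with an empty vector (EV) or with SOX10 overexpression (SOX10OE). The HDAC3 experiment (12 libraries) held control cells (Ctrl), HDAC3 knockout (HDAC3KO), MED23 knockout (MED23KO) and the double knockout (dKO) of HDAC3 and MED23. Guide identity is given for the first 2 experiments only, and whether a knockout population is a pool or 1 clone is not given in the sources used here. The sources used here do not say whether the 3 libraries of a group come from separate cultures, so p-values measure the spread between these libraries, which may be technical.

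Class I molecules carry peptides from inside the cell to its surface, where CD8 T cells and natural killer cells read them. Proteasomes cut proteins into peptides, the TAP1 and TAP2 transporter moves the peptides into the endoplasmic reticulum, tapasin (TAPBP) holds the empty class I molecule at the transporter, and a heavy chain (HLA-B, HLA-C or the less variable HLA-E) leaves with its peptide and the light chain B2M. Interferons raise most of these genes through factors such as IRF1, and NLRC5 is the transactivator that binds class I promoters together with the RFX complex. In melanoma, low class I expression is known as a route by which tumour cells escape T cells.

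Totals ran from 65.88 to 211.8 per library in the Mediator experiment, in units of 1e6 counts, 24.87 to 30.77 in the SOX10 experiment and 58.84 to 106.2 in the HDAC3 experiment. The targeted transcripts were lower in the labelled groups: MED12 stood at 24.2% of control in MED12 knockout cells in DMSO, MED19 at 48.1% and MED23 at 46.1% in theirs, and HDAC3 at 51.0% in HDAC3 knockout cells. A transcript that persists does not tell how much protein is left. SOX10 stood at 114.3% of control after overexpression in control cells and at 174.3% of the knockout level in MED23 knockout cells. Of the melanoma lineage markers, MITF (39.77 to 195 counts per 1e6 counts, CPM) and SOX10 (66.16 to 1076) were present in every library, whereas MLANA stayed between 0.709 and 2.22 and TYR between 0 and 0.401. Among blood cell markers, CD3E, MS4A1 and HBB were at 0 in 44, 47 and 62 of the 66 libraries, PTPRC was at 0 in 3, and CD14, LYZ (up to 20.8 CPM) and NKG7 were at 0 in none.

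Of the 9 genes, 7 lie on chromosome 6 in the major histocompatibility complex, B2M on chromosome 15 and NLRC5 on chromosome 16 (hg38, GENCODE 29). HLA-B spans 31269491 to 31357188 and HLA-C 31268749 to 31272130 on chromosome 6, and 1.15% of the exonic bases of HLA-B are also exonic in HLA-C. HLA-E spans 30489467 to 30494205, TAP2 32821833 to 32838780, PSMB9 32844136 to 32859585, TAP1 32845209 to 32853978 and TAPBP 33299694 to 33314387 on the same chromosome. B2M spans 44711487 to 44718877 on chromosome 15, and NLRC5 spans 56989485 to 57083531 on chromosome 16. Overlapping annotation makes part of the counts uncertain: 32.3% of the exonic bases of TAP2 are shared on the same strand with AL669918.1, 17.8% of those of HLA-B with AL671883.2 on the other strand and 9.49% of those of TAP1 with PSMB8-AS1 on the other strand. The coding sequences of HLA-B and HLA-C are identical at 90.08% of aligned bases, those of HLA-B and HLA-E at 85.61% and those of HLA-C and HLA-E at 83.11%. Of the stretches of 50 bases in the transcript with the longest coding sequence, 2.54% in HLA-B, 6.71% in HLA-C, 5.13% in HLA-E and 35.6% in TAP2 also occur in another gene, so reads from these parts may be lost or placed wrongly. Heavy chain alleles differ between people, and how far those of A375 depart from the reference was not tested.

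Promoters of HLA-B, HLA-C, B2M, TAP1 and TAP2 are shown, and those of TAPBP and PSMB9 were read but are not printed. The 250 bases upstream of the RefSeq start (GRCh38.p14) were read for the 7 genes in the promoter table, and capitals mark the letters of the interferon-stimulated response element, searched on both strands in 2 forms. The full form has a pair of GAAA runs 2 bases apart, and the shorter form is GAANNGAAA, which was added after the sequences had been read. The RefSeq start used for TAP1 lies 274 bases from the GENCODE start of the gene, that for TAPBP 309 bases and that for PSMB9 10056 bases.
HLA-B, chr6:31357180-31357429, minus strand: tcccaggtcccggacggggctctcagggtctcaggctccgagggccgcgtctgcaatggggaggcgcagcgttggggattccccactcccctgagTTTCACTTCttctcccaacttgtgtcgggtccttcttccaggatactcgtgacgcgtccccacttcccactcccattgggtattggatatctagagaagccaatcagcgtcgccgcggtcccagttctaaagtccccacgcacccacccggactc
HLA-C, chr6:31272093-31272342, minus strand: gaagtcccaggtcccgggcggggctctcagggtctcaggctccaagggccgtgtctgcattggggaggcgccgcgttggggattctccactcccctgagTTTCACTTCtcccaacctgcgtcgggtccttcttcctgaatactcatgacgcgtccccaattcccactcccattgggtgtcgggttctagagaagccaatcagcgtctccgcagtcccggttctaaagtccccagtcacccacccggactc
B2M, chr15:44711267-44711516, plus strand: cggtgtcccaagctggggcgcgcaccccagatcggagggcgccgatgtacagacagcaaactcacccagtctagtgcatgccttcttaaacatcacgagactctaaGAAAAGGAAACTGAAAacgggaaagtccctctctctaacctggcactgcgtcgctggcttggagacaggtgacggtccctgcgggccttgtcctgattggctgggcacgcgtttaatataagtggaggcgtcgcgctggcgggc
TAP1, chr6:32853705-32853954, minus strand: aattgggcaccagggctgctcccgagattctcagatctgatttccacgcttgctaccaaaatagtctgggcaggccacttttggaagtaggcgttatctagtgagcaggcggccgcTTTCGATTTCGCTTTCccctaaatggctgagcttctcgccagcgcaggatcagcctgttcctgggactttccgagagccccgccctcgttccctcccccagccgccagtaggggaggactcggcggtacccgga
TAP2, chr6:32838740-32838989, minus strand: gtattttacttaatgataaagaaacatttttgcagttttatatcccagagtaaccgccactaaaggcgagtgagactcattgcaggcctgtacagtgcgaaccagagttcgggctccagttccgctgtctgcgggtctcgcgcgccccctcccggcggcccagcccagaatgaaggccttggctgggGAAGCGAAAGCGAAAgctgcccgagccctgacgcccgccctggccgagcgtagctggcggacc

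Of the 7 promoters, 4 held the full form (B2M, TAP1, TAP2 and TAPBP), against 3.07% of 27305 promoters of the same length. The shorter form was found in HLA-B, HLA-C and TAP2, and in TAP2 it overlaps the full form. It occurs in 6.77% of promoters, but it was added after these sequences had been read, so its count here is not a test. HLA-B and HLA-C carry it at nearly the same place, at bases -155 to -147 and -151 to -143 counted from the start. The gamma-activated site TTCNNNGAA was in 0 of the 7, against 6.78% of promoters. The CCAAT box was in 5 of the 7 against 33.04%, the cyclic AMP response core TGACG in 5 against 21.66%, and the NF-kappaB letters in 5 against 22.08%. The CCAAT letters of TAP1 (bases -249 to -245) and of PSMB9 (bases -243 to -239) are the same site, counted for both genes. PSMB9 held neither form of the interferon element within its window. That window (chr6:32853942-32854191, plus strand) overlaps the far end of the TAP1 window, and these genes run in opposite directions. The TAP1 letters, at bases -134 to -125 and -128 to -119, lie outside the PSMB9 window but between the RefSeq starts of both genes. Across the groups of the Mediator experiment, each gene was correlated with the mean of the other members. Among holders of the full form, this was 0.98 for TAP1, 0.96 for B2M, 0.63 for TAPBP and 0.21 for TAP2. For PSMB9 it was 0.92, and the part of these letters was not tested. A match describes letters in this window and not a bound site.

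In control cells in DMSO, levels per length ranked B2M first at 78.5 ± 2.0 CPM per kilobase of exon (mean ± SD, n = 3). HLA-C (51.1 ± 1.8) and HLA-B (50.6 ± 1.4) followed and did not differ beyond their spread, then HLA-E (36.2 ± 1.3), TAPBP (15.6 ± 0.64), TAP1 (6.55 ± 0.41), TAP2 (3.81 ± 0.13), PSMB9 (3.31 ± 0.17) and NLRC5 (0.895 ± 0.046). Divided by the longest transcript in place of all exons, HLA-B stood at 99.9 and HLA-C at 68.1, so the order of these 2 depends on the length used. The transactivator NLRC5 was the lowest of the 9 by both lengths. Below, levels are CPM on scaled library sizes and are compared only within a gene, and "rose" and "fell" mean an adjusted p under 0.05 in edgeR's quasi-likelihood test.

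MED12 is a subunit of the Mediator kinase module, and its knockout in DMSO raised all 9 genes. At this threshold 27.9% of the 27453 tested genes rose and 27.0% fell, and at 2-fold or more 9.91% rose. Their median log2 fold change was 0.86, against 0.0031 over all genes tested. NLRC5, B2M, TAP1 and PSMB9 at least doubled. The libraries of the groups did not overlap for 8 of the 9 genes, HLA-E being the exception, while 25.5% of all genes lay higher and 24.3% lower without overlap. Mitochondrial transcripts took 1.15% to 1.233% of counts in control libraries and 1.339% to 1.693% in MED12 libraries, and their part was not tested. In bulk RNA, fewer cells of a type and less RNA per cell cannot be told apart.

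NLRC5 read 10.45, 11.26 and 11.54 CPM in control cells, 35.27, 44.31 and 38.45 with MED12sg1 and 36.49, 47.8 and 37.75 with MED12sg2. Every knockout library was more than 3 times the highest control, and the log2 fold change was 1.85 ± 0.069 (SE; adjusted p = 3.52e-28). TAP1 went from 29.38, 33.29 and 31.69 CPM to 73.72, 94.02 and 78.6 with MED12sg1 and 69.73, 97.34 and 75.33 with MED12sg2, a log2 fold change of 1.37 ± 0.071 (adjusted p = 2.44e-22). Its partner TAP2 went from 24.21, 25.24 and 23.57 to 43.97, 46.56 and 43.38 with MED12sg1 and 41.17, 45.9 and 43.47 with MED12sg2, a smaller log2 fold change of 0.86 ± 0.046. Both subunits of the transporter rose, and both guides gave libraries above every control library.

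PSMB9, the interferon-inducible catalytic subunit that replaces PSMB6 in the immunoproteasome, read 10.09, 10.7 and 9.687 CPM in control cells, 22.48, 28.06 and 24.3 with MED12sg1 and 21.28, 27.7 and 23.37 with MED12sg2 (log2 fold change 1.27 ± 0.072, adjusted p = 6.69e-21). B2M rose from 491.2, 469.1 and 470.7 CPM to 912, 1076 and 950.8 with MED12sg1 and 905.9, 1098 and 959.2 with MED12sg2 (1.04 ± 0.045, adjusted p = 8.36e-26). The heavy chains moved less than their light chain. HLA-B rose from 152.2, 159.5 and 151.7 CPM to 213.5, 263.8 and 225.7 with MED12sg1 and 197.0, 276.9 and 196.2 with MED12sg2, 148.1% of control. HLA-C rose to 150.5% and TAPBP to 176.0% of control. HLA-E reached only 110.4% (adjusted p = 0.0258), with 106.1, 134.4 and 103.7 CPM with MED12sg2 against 109.0, 110.6 and 103.1 in control cells, so these libraries overlap. The HLA-E call was lost without library 2 of MED12sg2 (log2 fold change 0.079, adjusted p = 0.171), without library 2 of MED12sg1 (adjusted p = 0.103) and without control library 3 (adjusted p = 0.145).

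**Figure D1:**
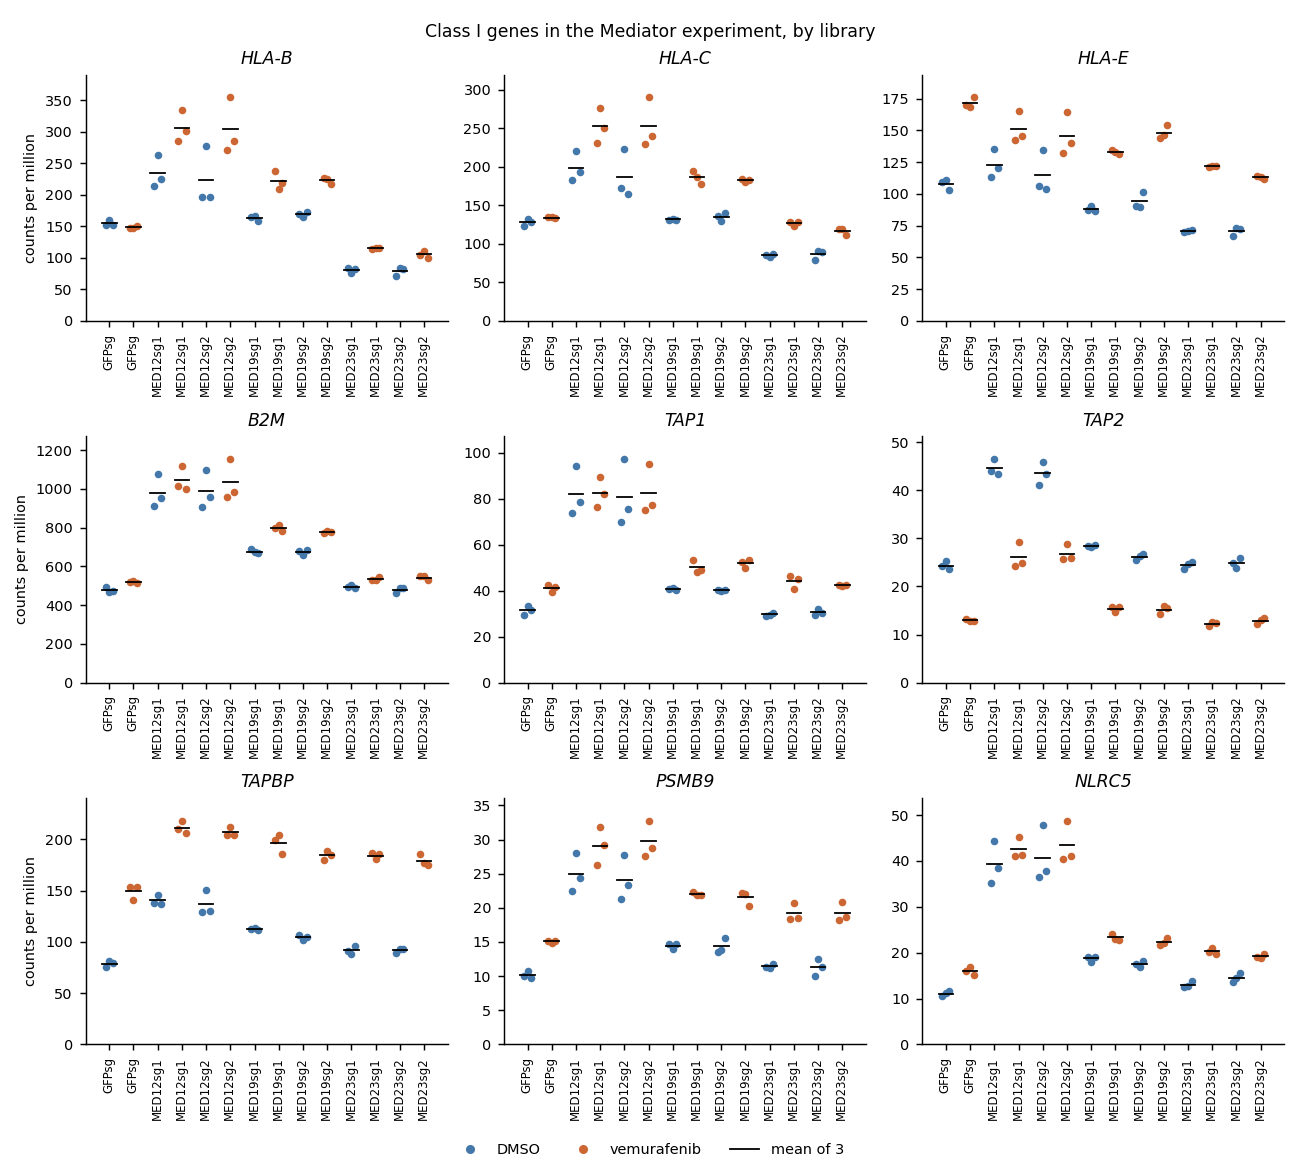
CPM (y axis, from 0) of each class I gene in the 42 libraries of the Mediator experiment, by guide (x axis). Points are libraries in DMSO or vemurafenib and bars are means of 3. MED12 libraries in DMSO lie above every control library for 8 of the 9 genes, and in MED12 groups the library numbered 2 is the highest of the 3.

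One library number stood apart. In each of the 4 MED12 groups, the library numbered 2 was the highest of the 3 for 9 of the 9 genes, and the median coefficient of variation was 9.95% in MED12 groups against 3.13% in the other groups of the Mediator experiment. With these 4 libraries left out, an alternative chosen after seeing the data, 52 of 54 gene and comparison pairs kept their call. In MED12 knockout in DMSO, 8 genes then rose, with log2 fold changes of 1.72 for NLRC5, 1.23 for TAP1, 1.16 for PSMB9, 0.96 for B2M, 0.81 for TAP2, 0.75 for TAPBP, 0.47 for HLA-C and 0.42 for HLA-B. HLA-E was then 0.03 (adjusted p = 0.485), and B2M was below 2-fold.

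Genes around the pathway were read the same way, from lists chosen with earlier results of these data known. Of 12 class I pathway partners, 9 rose and 3 fell in MED12 knockout in DMSO, against 27.9% and 27.0% of all genes. Their median log2 fold change was 0.78. The 4 that rose most were HLA-F, a further class I heavy chain (1.44 ± 0.11), TAPBPL, a peptide editor (1.28 ± 0.086), ERAP2, an aminopeptidase that trims peptides (1.25 ± 0.086), and PSMB10, an immunoproteasome subunit (1.17 ± 0.078). The 3 that fell were the general chaperones of the endoplasmic reticulum, CALR (-0.28), CANX (-0.49) and PDIA3 (-0.16). Of the 3 constitutive catalytic subunits of the proteasome, 0 rose and 2 fell. The ratio of PSMB9 to PSMB6 per length went from 0.0417 ± 0.0015 in control cells to 0.112 ± 0.015 with MED12sg1 and 0.106 ± 0.015 with MED12sg2 (SD, n = 3). PSMB6 itself changed little (-0.11).

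Of 12 interferon and class I regulators, 8 rose and 4 fell in MED12 knockout in DMSO, against 27.9% and 27.0% of all genes. The feedback inhibitor SOCS1 rose most (2.30 ± 0.30), from at most 0.237 CPM in control cells. IRF9 (1.84 ± 0.17) and IRF1 (1.12 ± 0.071), transcription factors of the interferon response, also rose. RFXAP (-0.61), RFXANK (-0.24), RFX5 (-0.12) and NFKB1 (-0.13) fell, the first 3 being the RFX complex that NLRC5 works with. Of 7 interferon receptors and kinases, 2 rose (JAK2 0.84, JAK1 0.53) and 2 fell (IFNGR2 -0.35, IFNAR1 -0.08). The counts for the receptors and kinases lie near the shares of all genes, 27.9% and 27.0%.

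Reads of interferon genes themselves were few. IFNL1, an interferon lambda, had 0 counts in each of the 3 control libraries in DMSO, 8 to 15 counts per library with MED12sg1 and 10 to 13 with MED12sg2. IFNB1 had 0 to 1 counts in control libraries, 4 to 11 with MED12sg1 and 0 to 12 with MED12sg2. Of the 5 interferon genes listed, only IFNL1 passed the filter on low counts, and none was tested in the SOX10 or HDAC3 experiments. The other listed interferon genes were therefore not tested in the Mediator experiment either. No fold change of IFNL1 is given here at such low counts.

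**Figure D2:**
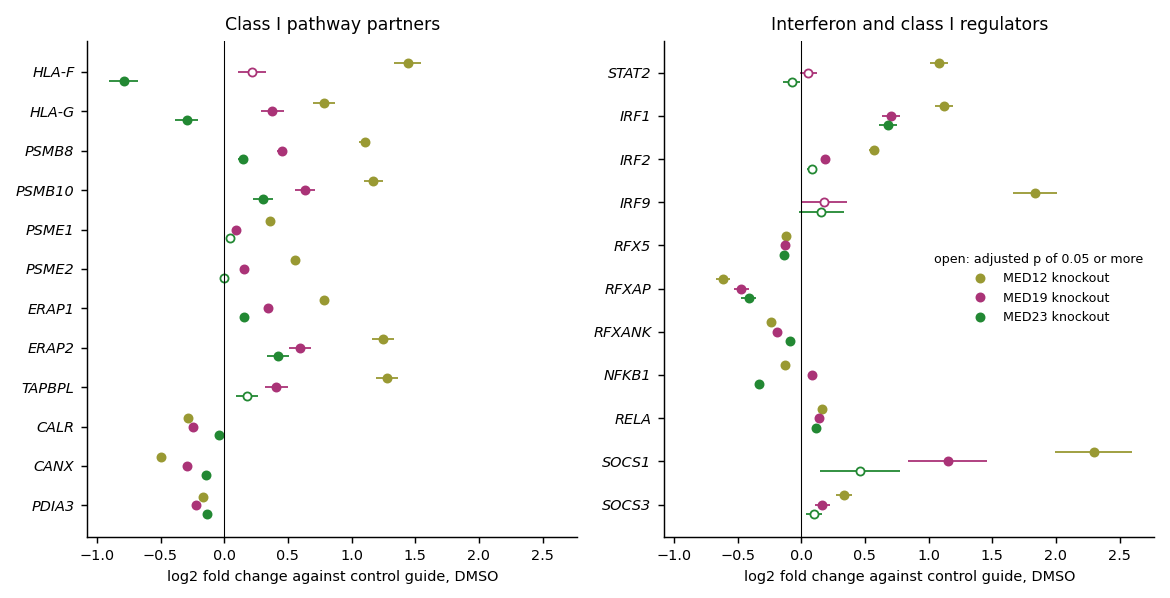
Log2 fold change against the control guide in DMSO (x axis) of 12 class I pathway partners and 11 interferon and class I regulators (y axis) in MED12, MED19 and MED23 knockout cells. Bars are standard errors and open symbols have an adjusted p of 0.05 or more. IRF9 rose in MED12 knockout cells (1.84), and HLA-F rose there (1.44) and fell in MED23 knockout cells (-0.79).

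Blood cell markers were read beside these changes. Of the 10, 6 were tested in the Mediator experiment. In MED12 knockout in DMSO 3 rose (CD3D, PTPRC and CD14) and 2 fell (LYZ and NKG7), against 27.9% and 27.0% of all genes. PTPRC, the common leukocyte antigen, was at most 0.106 CPM in control libraries and 0.341 to 0.520 CPM in MED12 libraries, CD3D was at most 0.00977 against 0.299 to 0.396, and CD14 was 0.215 to 0.330 against 0.634 to 0.927. The summed level of the 10 markers, most of it LYZ, was 15.24 to 16.99 CPM in control libraries and 11.52 to 14.37 in MED12 libraries in DMSO. Their part in the result was not tested. SOX10, a lineage marker of melanoma, stood at 15.6% of control in the same cells, and 6 of the 8 lineage markers fell and 0 rose.

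MED19 belongs to the middle module of Mediator. Its knockout in DMSO raised 6 of the 9 genes and lowered 1, against 20.4% and 20.2% of all genes. NLRC5 read 19.04, 18.02 and 19.15 CPM with MED19sg1 and 17.63, 16.8 and 18.28 with MED19sg2, all above the control libraries (0.71 ± 0.068, adjusted p = 1.83e-12). B2M read 688.4, 672 and 667.8 CPM with MED19sg1 and 678, 659.2 and 684.3 with MED19sg2 (0.50 ± 0.043), again without overlap. PSMB9 (0.51 ± 0.072), TAPBP (0.46 ± 0.037), TAP1 (0.36 ± 0.070) and TAP2 (0.17 ± 0.046) rose, while HLA-E fell (-0.24 ± 0.055). HLA-B (0.11 ± 0.070, adjusted p = 0.235) and HLA-C (0.06 ± 0.061, adjusted p = 0.495) did not pass the test, although a fit on the compared groups alone gave HLA-B an adjusted p of 0.000133. The TAP2 call rested on guide 1, since with guide 2 alone it was 0.11 (adjusted p = 0.121). Of the 12 partners 8 rose and 3 fell, with PSMB10 (0.63) and ERAP2 (0.59) highest, and of the 12 regulators 6 rose and 3 fell, with SOCS1 (1.15 ± 0.31) and IRF1 (0.71 ± 0.071) highest. The blood marker sum was 17.82 to 21.67 CPM in MED19 libraries in DMSO, and its part was not tested.

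MED23 is a subunit of the tail module. Its knockout in DMSO lowered the 3 heavy chains and raised TAPBP and NLRC5, so 2 of the 9 rose and 3 fell, against 18.4% and 18.5% of all genes. HLA-B fell from 152.2, 159.5 and 151.7 CPM to 84.08, 76.49 and 82.22 with MED23sg1 and 71.64, 83.48 and 82.53 with MED23sg2. No library overlapped, and HLA-B stood at 51.8% of control (-0.95 ± 0.068, adjusted p = 1.19e-16). HLA-C fell from 123.5, 132.3 and 128.2 CPM to 85.55, 83.48 and 86.88 with MED23sg1 and 79.2, 91.22 and 89.08 with MED23sg2, which is 67.1% of control. HLA-E fell to 65.7% of control, with 69.74, 70.67 and 71.31 CPM with MED23sg1. B2M, TAP1, TAP2 and PSMB9 had log2 fold changes of 0.03, -0.06, 0.02 and 0.16 that did not pass, PSMB9 passing without MED23sg2 library 1 (0.20, adjusted p = 0.0234). TAPBP rose by 0.22 ± 0.036 and NLRC5 by 0.31 ± 0.068 (adjusted p = 0.000163). The summed heavy chains per length, divided by B2M per length, went from 1.76 ± 0.082 in control cells to 1.04 ± 0.035 with MED23sg1 and 1.07 ± 0.041 with MED23sg2, and to 1.23 ± 0.019 and 1.14 ± 0.10 with the MED12 guides (SD, n = 3).

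Other class I heavy chains among the partners also fell with MED23 knockout, HLA-F by 0.79 and HLA-G by 0.30 on the log2 scale, and in all 4 of the 12 partners rose and 5 fell. How far reads of HLA-F and HLA-G may be misplaced from the heavy chain members was not tested, here or in the other comparisons. ERAP2 rose (0.42 ± 0.087). Of the 12 regulators, 2 rose and 4 fell, and IRF1 rose by 0.68 ± 0.071 while NFKB1 (-0.33) and RFXAP (-0.41) fell. Over all genes 18.4% rose and 18.5% fell in this comparison. The blood marker sum was 7.95 to 9.469 CPM in MED23 libraries in DMSO. SOX10 stood at 37.2% of control, and 5 of the 8 lineage markers fell. The part of these in the result was not tested.

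**Figure D3:**
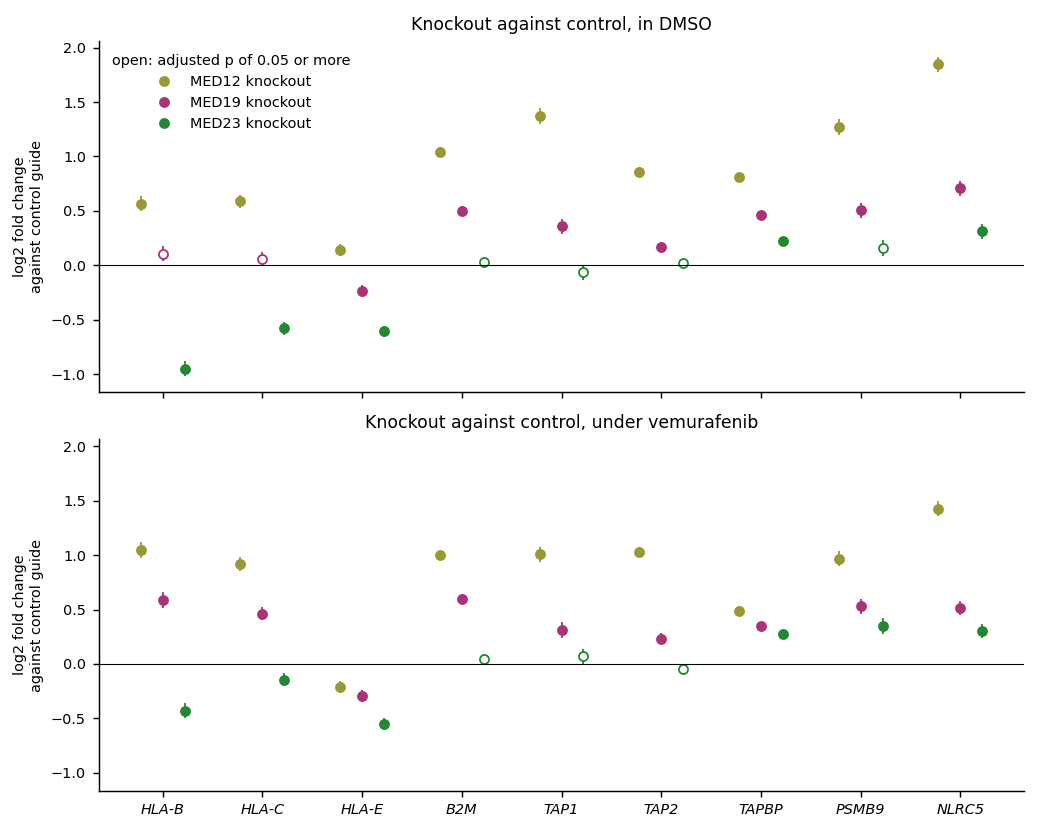
Log2 fold change against the control guide (y axis) of the 9 class I genes (x axis) for each Mediator subunit, in DMSO above and under vemurafenib below. Bars are standard errors and open symbols have an adjusted p of 0.05 or more. HLA-B stands at 0.57 for MED12 and -0.95 for MED23 in DMSO, and NLRC5 is the highest point of MED12 knockout in both panels.

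The 3 knockouts share their 3 control libraries, so subunits were also compared with each other. MED12 against MED19 knockout in DMSO was higher for 9 of 9 genes, against 23.8% of all genes higher and 22.9% lower, with NLRC5 1.14 ± 0.052 and TAP1 1.01 ± 0.056 apart. At 2-fold or more, 2 of the 9 were higher, against 6.42% of all genes. MED12 against MED23 knockout was higher for 9 of 9 (25.9% and 24.9% of all genes), 6 of them at 2-fold or more (6.90% of all genes): NLRC5 1.53 ± 0.053, HLA-B 1.52 ± 0.058, TAP1 1.43 ± 0.056, HLA-C 1.17 ± 0.050, PSMB9 1.11 ± 0.057 and B2M 1.01 ± 0.035. MED19 against MED23 knockout was likewise higher for 9 of 9 (17.5% and 16.1% of all genes), with 1 at 2-fold or more (1.84% of all genes), HLA-B at 1.06 ± 0.058. Libraries did not overlap for 9, 9 and 8 of the 9 genes in these comparisons, against 15.2%, 17.5% and 9.14% of all genes that lay higher without overlap. The TAP2 difference between MED19 and MED23 knockout was lost with guide 2 alone (0.08, adjusted p = 0.329). Without the 4 MED12 libraries numbered 2, TAP1 in MED12 against MED19 (0.88) and B2M in MED12 against MED23 (0.93) were below 2-fold.

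Vemurafenib in control cells raised 6 of the 9 genes and lowered TAP2, against 35.8% and 30.3% of all genes. The median was 0.38, and 0.11 over all genes. TAPBP went from 75.13, 81.53 and 79.4 to 153.9, 141.3 and 153.9 CPM (0.93 ± 0.042, adjusted p = 2.98e-25). HLA-E went from 109.0, 110.6 and 103.1 to 170.3, 168.7 and 176.4 CPM (0.68 ± 0.064, adjusted p = 2.30e-13). PSMB9 (0.57 ± 0.082), NLRC5 (0.53 ± 0.077) and TAP1 (0.38 ± 0.080) rose. TAP2, which works only as the partner of TAP1, fell from 24.21, 25.24 and 23.57 to 13.25, 12.88 and 12.8 CPM, 53.3% of control (adjusted p = 4.19e-20).

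HLA-B read 147.2, 147.7 and 149.8 CPM under vemurafenib, below the 151.7 to 159.5 of control cells in DMSO. Its log2 fold change of -0.06 ± 0.080 did not pass (adjusted p = 0.527). A fit on the compared groups alone gave -0.11 (adjusted p = 0.00113). HLA-C was 0.07 ± 0.070 (adjusted p = 0.419). Without overlap of libraries, 7 of the 9 genes lay higher, HLA-C among them, and 2 lower, against 38.1% and 32.2% of all genes. B2M rose by 0.13 ± 0.049 (adjusted p = 0.0223), and that call was lost with DESeq2 (adjusted p = 0.106) and without control DMSO library 2 or 3 or vemurafenib library 1 or 2 (adjusted p = 0.0505 to 0.0778). The ratio of TAP1 to TAP2 per length went from 1.72 ± 0.092 to 4.21 ± 0.12 (SD, n = 3), and every vemurafenib group lay between 4.08 and 4.80. The ratio of PSMB9 to PSMB6 went from 0.0417 to 0.105. Of the 12 partners 8 rose, PSMB10 most (1.30 ± 0.087), and 4 fell, among them CALR (-0.77 ± 0.020). All 3 constitutive catalytic subunits fell, PSMB6 most (-0.76 ± 0.034). Of the 12 regulators 5 rose and 4 fell: STAT2 rose (1.27 ± 0.077), IRF9 rose (1.04 ± 0.19), SOCS3 fell (-1.65 ± 0.079) and IRF1 fell (-0.34). Over all genes 35.8% rose and 30.3% fell with the drug. PTPRC rose from at most 0.106 CPM to 2.054 to 2.75 CPM with the drug, and the blood marker sum was 10.82 to 11.37 CPM. All 8 lineage markers rose with the drug, MITF from 72.82 to 75.80 CPM to 151.5 to 155.7 CPM and DCT from 2.130 to 2.637 CPM to 820.4 to 863.4 CPM. The mitochondrial share of counts went from 1.15% to 1.233% to 2.418% to 2.765%. The part of these in the result was not tested.

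In MED19 and MED23 knockout cells the drug raised 8 of the 9 genes and lowered TAP2. The shares of all genes were 37.7% up and 32.6% down for MED19, and 37.4% and 32.1% for MED23. In MED12 knockout cells it raised 6 and lowered TAP2, against 32.4% and 30.8% of all genes, and the DMSO and drug libraries overlapped for 6 of the 9 genes and for 53.4% of all genes. HLA-B rose in all 3 knockouts, by 0.42 ± 0.056 in MED12, 0.42 ± 0.057 in MED19 and 0.46 ± 0.059 in MED23. HLA-C rose by 0.39, 0.47 and 0.50. B2M rose by 0.08 ± 0.035 in MED12 knockout cells (adjusted p = 0.0449), which was lost with either guide alone (adjusted p = 0.111 and 0.276) and without DMSO library 1 or 3 or vemurafenib library 2 of either guide (adjusted p = 0.107 to 0.283). It rose by 0.14 in MED23 knockout cells, and this was lost with guide 1 alone (adjusted p = 0.0501). TAP1 did not pass in MED12 knockout cells (0.02, adjusted p = 0.773), nor did NLRC5 (0.11, adjusted p = 0.0583), which passed at 0.16 without the 4 MED12 libraries numbered 2 (adjusted p = 0.000956). TAP2 fell by 0.73, 0.84 and 0.98.

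**Figure D4:**
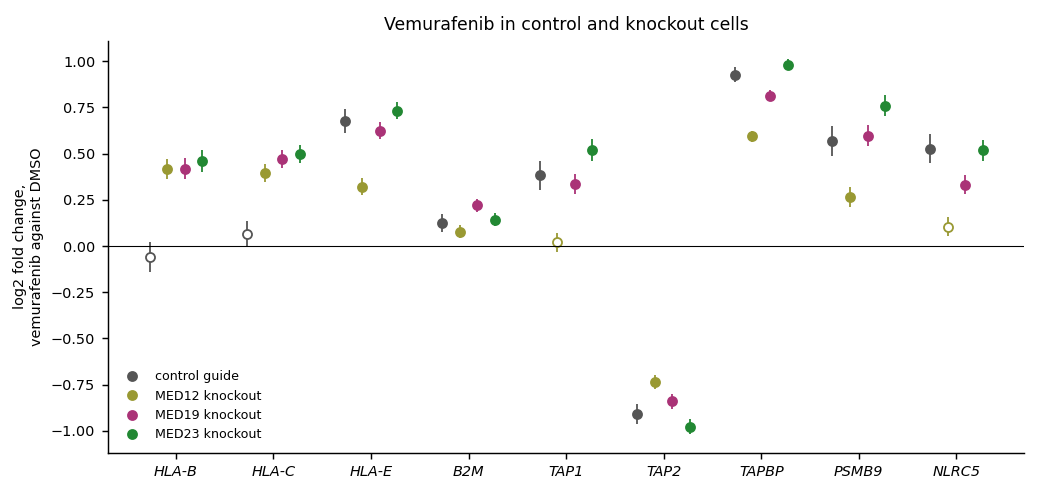
Log2 fold change of vemurafenib against DMSO (y axis) of the 9 class I genes (x axis) in control and knockout cells. Bars are standard errors and open symbols have an adjusted p of 0.05 or more. HLA-B and HLA-C are near 0 in control cells (-0.06 and 0.07) and at 0.39 to 0.50 in the knockouts, whereas TAP2 is below 0 in all 4.

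The interaction terms tested these differences directly, and all 3 use the same 6 control libraries. HLA-B and HLA-C responded more to the drug in each knockout than in control cells. For HLA-B the difference was 0.48 ± 0.098 with MED12 (adjusted p = 4.67e-05), 0.48 ± 0.098 with MED19 (adjusted p = 8.88e-05) and 0.52 ± 0.099 with MED23 (adjusted p = 2.72e-05), and for HLA-C it was 0.33, 0.40 and 0.43. With MED19 and MED23 no other gene passed in this fit, so 2 rose and 0 fell, against 17.4% and 15.2% of all genes for MED19 and 18.5% and 16.2% for MED23. TAPBP passed with MED19 without control vemurafenib library 2 (-0.15, adjusted p = 0.0206). With only the groups compared, B2M (0.10), NLRC5 (-0.19) and TAPBP (-0.11) also passed with MED19 (adjusted p = 0.00619, 0.0209 and 0.04), and PSMB9 (0.22) and TAP1 (0.17) with MED23 (adjusted p = 0.0368 and 0.0221). With no filter on low counts, B2M passed with MED19 (0.13, adjusted p = 0.000955), and PSMB9 (0.21) and TAP1 (0.15) with MED23 (adjusted p = 0.0212 and 0.0139). With MED12, 3 rose and 5 fell, against 24.9% and 24.2%: HLA-E (-0.35), TAP1 (-0.36), TAPBP (-0.33), PSMB9 (-0.31) and NLRC5 (-0.42) responded less to the drug. The TAP2 interaction with MED12 (0.17 ± 0.066, adjusted p = 0.0259) was lost without library 2 of the vemurafenib-treated MED12sg1 group (adjusted p = 0.0727), without control DMSO library 2 (adjusted p = 0.0888) or control vemurafenib library 3 (adjusted p = 0.054), and with guide 1 alone (adjusted p = 0.145).

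Under vemurafenib, MED12 knockout raised 8 of the 9 genes and lowered HLA-E (32.5% and 29.6% of all genes). At 2-fold or more, 4 of the 9 rose, against 10.9% of all genes. Without the 4 MED12 libraries numbered 2, TAP2 (0.97), HLA-B (0.96) and TAP1 (0.94) were below 2-fold and NLRC5 (1.37) stayed above it. HLA-B reached 284.8, 334.2 and 300.6 CPM with MED12sg1 and 271.1, 355.5 and 286.1 with MED12sg2 against 147.2 to 149.8 in control cells (1.04 ± 0.072). NLRC5 was 1.43 ± 0.067, TAP2 1.03 ± 0.049 and TAP1 1.01 ± 0.070, while HLA-E fell (-0.21 ± 0.054). MED19 knockout raised 8 and lowered HLA-E (23.1% and 20.7% of all genes), with HLA-B at 237.6, 209.7 and 218.3 CPM with MED19sg1 and 226, 225.5 and 217.5 with MED19sg2 (0.59 ± 0.071). MED23 knockout raised 3 and lowered 3 (24.6% and 22.7% of all genes). There HLA-B (-0.43 ± 0.070) and HLA-E (-0.55 ± 0.054) fell, and PSMB9 (0.35), NLRC5 (0.30) and TAPBP (0.28) rose. HLA-C fell by 0.14 (adjusted p = 0.0483), and this call was lost without any 1 of 8 of the 9 libraries (adjusted p = 0.0518 to 0.113) and with guide 1 alone (adjusted p = 0.370).

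Across the 14 groups of the Mediator experiment, ordered by level, 13 neighbouring pairs of groups were compared for each gene. Libraries of neighbouring groups overlapped in 6 of these pairs for B2M, 7 for HLA-B, 8 for HLA-C and TAPBP, 9 for HLA-E and 10 for TAP1, TAP2, PSMB9 and NLRC5. Where neighbours overlapped, their order is not resolved. Over the 14 groups, the correlation of a gene with the mean of the other 8 was 0.98 for TAP1, 0.96 for B2M, 0.95 for HLA-C and NLRC5, 0.92 for PSMB9, 0.89 for HLA-B, 0.63 for TAPBP, 0.60 for HLA-E and 0.21 for TAP2. The groups share libraries of 1 experiment, and these values describe them. Among 12179 candidate genes, those most like the mean of the 9 were IL13RA1 (r = 0.983), PSMB8 (0.977), HLA-G (0.977), IFI35 (0.976), LINC01145 (0.975), CTSS (0.972), APOL3 (0.972) and NAAA (0.969). PSMB8, an immunoproteasome subunit, and CTSS, a lysosomal protease, are known from antigen processing.

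In the SOX10 experiment, SOX10, which regulates genes of neural crest and melanocyte cells, was raised in control and MED23 knockout cells. In control cells 4 of the 9 genes rose and 1 fell, against 11.6% and 11.0% of all genes. HLA-B went from 93.24, 98.15 and 93.77 to 126.1, 132.3 and 126.5 CPM without overlap (0.43 ± 0.040, adjusted p = 6.47e-10). HLA-C (0.34 ± 0.045) and HLA-E (0.25 ± 0.038) rose, and B2M rose by 0.14 ± 0.038, a call lost without overexpression library 3 (adjusted p = 0.068). NLRC5 fell from 11.31, 10.23 and 11.49 to 9.028, 9.28 and 7.71 CPM (-0.35 ± 0.083, adjusted p = 0.00204).

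MED23 knockout with the empty vector lowered HLA-B (-0.71 ± 0.043), HLA-E (-0.39 ± 0.040) and HLA-C (-0.33 ± 0.047) and raised TAPBP (0.40 ± 0.037), NLRC5 (0.39 ± 0.076) and B2M (0.12 ± 0.038), against 21.2% of all genes higher and 22.3% lower. The B2M call was lost without control EV library 1 (adjusted p = 0.0776). HLA-B read 55.91, 56.16 and 62.11 CPM, all below the 93.24 of the lowest control library. Of the 12 partners 5 rose and 2 fell, TAPBPL most (0.62 ± 0.12), and of the regulators IRF1 rose most (0.58 ± 0.091). The blood marker sum was 14.25 to 15.19 CPM in control EV libraries and 7.731 to 10.29 in knockout libraries, and its part was not tested.

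SOX10 overexpression in MED23 knockout cells raised HLA-B (0.25 ± 0.044) and HLA-E (0.27 ± 0.040) and lowered NLRC5 (-0.75 ± 0.078), TAPBP (-0.43 ± 0.037) and TAP2 (-0.16 ± 0.058), against 21.2% higher and 20.7% lower. The TAP2 call was lost without MED23sg1 EV library 1 or 2 or overexpression library 3 (adjusted p = 0.0527 to 0.136). NLRC5 went from 14.05, 15.43 and 13.75 to 9.222, 8.297 and 8.154 CPM. IRF1 (-0.69 ± 0.091) and TAPBPL (-0.65 ± 0.12) fell too. Among cells that overexpress SOX10, MED23 knockout lowered HLA-B (-0.90 ± 0.041), HLA-C (-0.61 ± 0.046) and HLA-E (-0.38 ± 0.038) and raised 0 of the 9, against 16.1% higher and 16.3% lower. SOX10 itself stood at 71.5% in this comparison, so the groups were not matched for it, and its part was not tested.

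Compared with empty vector control cells, MED23 knockout with SOX10 overexpression had 1 gene higher and 5 lower, against 16.6% and 16.9% of all genes. SOX10 itself stood at 81.8% of control in this comparison, and its part was not tested. HLA-B (-0.46 ± 0.042) and HLA-C (-0.27 ± 0.047) stayed lower, NLRC5 (-0.36 ± 0.083) and TAP2 (-0.22 ± 0.058) were lower and HLA-E (-0.13 ± 0.039) was lower, a call lost without control EV library 3 (adjusted p = 0.0541) or overexpression library 1 (adjusted p = 0.0882). B2M was higher (0.11 ± 0.038), and this was lost without control EV library 1 or overexpression library 2 or 3 (adjusted p = 0.106 to 0.169). The interaction of MED23 knockout and overexpression lowered 4 of the 9 and raised 0, against 7.64% higher and 7.04% lower. SOX10 moved TAPBP (-0.45 ± 0.053), NLRC5 (-0.40 ± 0.11) and HLA-C (-0.28 ± 0.066) further down, or less far up, in MED23 knockout cells than in control cells. HLA-B (-0.19 ± 0.059, adjusted p = 0.0314) passed too. Its call was lost without control EV library 1 or 3, control overexpression library 2, MED23sg1 EV library 3 or MED23sg1 overexpression library 1 (adjusted p = 0.0541 to 0.166). The NLRC5 call was lost without control overexpression library 1 or 2 or MED23sg1 EV library 2 (adjusted p = 0.0509 to 0.0519).

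HDAC3 is a histone deacetylase of corepressor complexes, and its knockout in control cells raised 6 of the 9 genes, with 0 lower, against 21.2% higher and 20.9% lower. HLA-B went from 121.8, 119.5 and 117.2 to 236.1, 250.0 and 241.8 CPM (1.02 ± 0.045, adjusted p = 2.66e-14), the only one of the 9 at 2-fold or more (4.63% of all genes). HLA-C went from 82.9, 83.28 and 81.91 to 128.7, 137.2 and 125.9 CPM (0.66 ± 0.064). B2M (0.59 ± 0.079), HLA-E (0.58 ± 0.049) and TAP1 (0.27 ± 0.064) rose without overlap. TAPBP rose by 0.17 ± 0.054, a call lost without Ctrl library 2 (adjusted p = 0.0577) or HDAC3KO library 2 (adjusted p = 0.0502). TAP2 (0.03), PSMB9 (0.04) and NLRC5 (-0.10) did not pass. Of the 12 partners 7 rose and 0 fell, led by HLA-F (0.82 ± 0.10), PDIA3 (0.67 ± 0.041), HLA-G (0.63 ± 0.13) and CALR (0.61 ± 0.034), and of the 12 regulators only SOCS3 moved (-1.67 ± 0.099). PTPRC rose from at most 0.0410 CPM to 0.357 to 0.423 CPM, while the blood marker sum was 16.34 to 19.48 CPM in Ctrl and 12.97 to 18.47 in HDAC3KO. Of the 8 lineage markers, 7 were tested and 5 rose. The part of these markers was not tested.

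**Figure D5:**
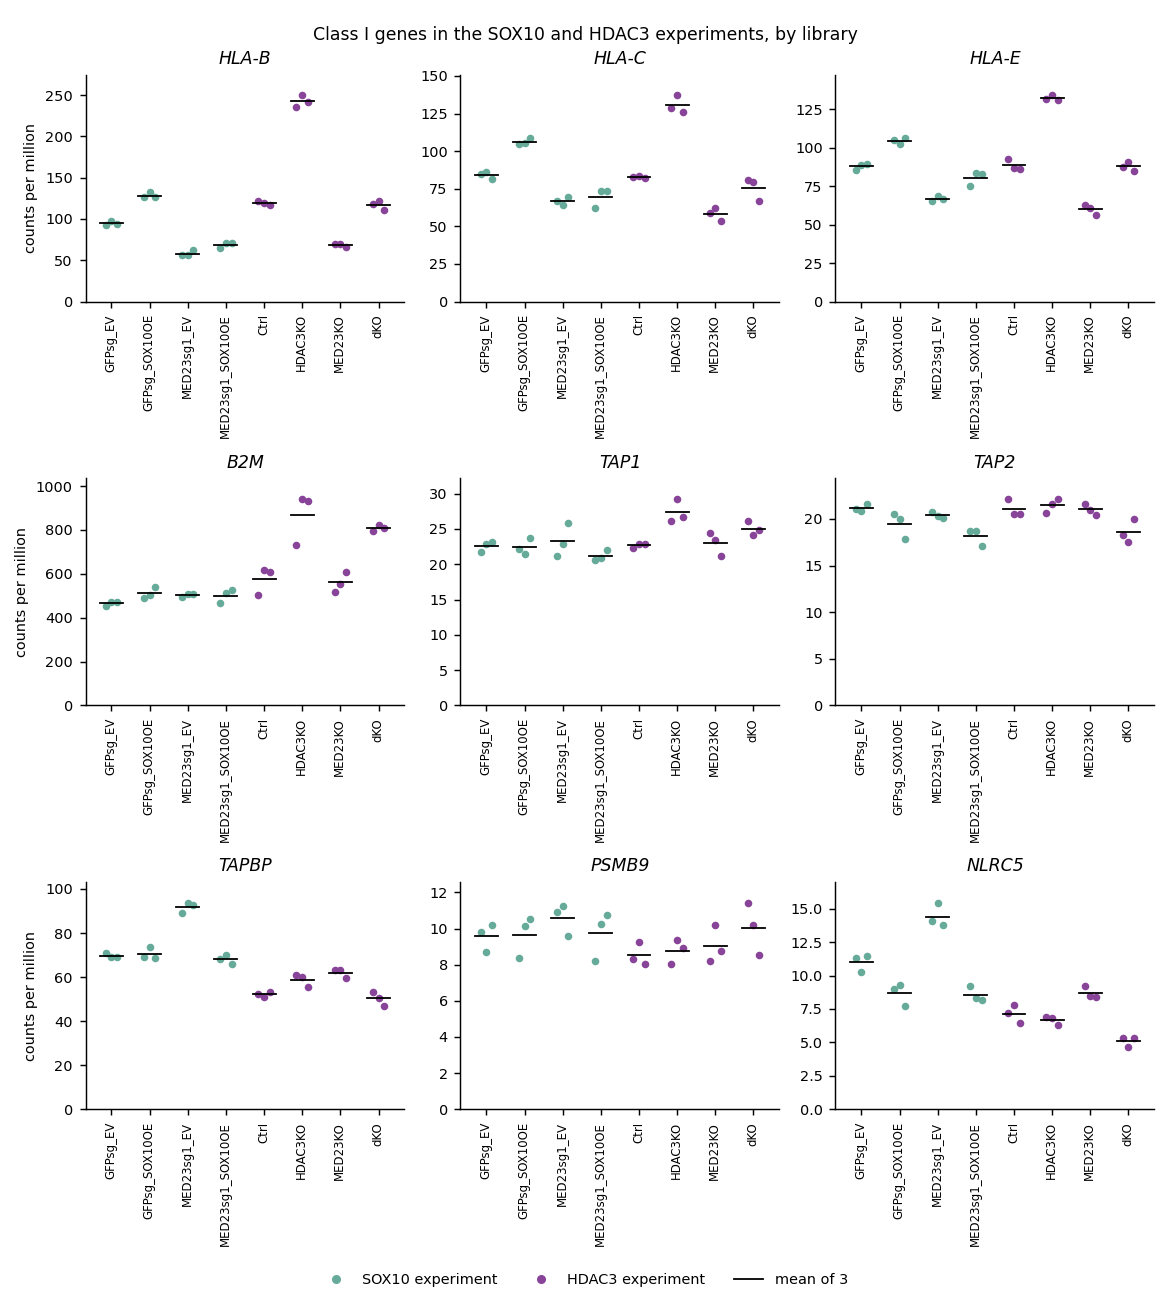
CPM (y axis, from 0) of each class I gene in the 12 libraries of the SOX10 experiment and the 12 of the HDAC3 experiment, by group (x axis). Points are libraries and bars are means of 3; the 2 experiments are separate batches. HLA-B in HDAC3KO libraries lies at 236.1 to 250.0, above every other group of that experiment, and the double knockout lies near Ctrl.

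MED23 knockout in the HDAC3 experiment again lowered HLA-B (69.19, 69.66 and 66.5 CPM, -0.80 ± 0.045), HLA-C (-0.50 ± 0.065) and HLA-E (-0.56 ± 0.049), and raised TAPBP (0.25 ± 0.054) and NLRC5 (0.29 ± 0.088), against 12.3% higher and 12.0% lower. The blood marker sum was 8.77 to 10.34 CPM in MED23KO, and its part was not tested. The NLRC5 call was lost without Ctrl library 3 (adjusted p = 0.121) or MED23KO library 1 (adjusted p = 0.0926). HDAC3 knockout in MED23 knockout cells raised 4 of the 9 and lowered 3, against 19.1% and 18.9%. HLA-B rose by 0.77 ± 0.045, HLA-E by 0.55 ± 0.049, B2M by 0.53 ± 0.079 and HLA-C by 0.38 ± 0.065. NLRC5 fell from 9.207, 8.499 and 8.421 to 5.323, 4.674 and 5.297 CPM (-0.78 ± 0.093), and TAPBP fell (-0.30 ± 0.054). TAP2 fell by 0.18 ± 0.065, and this was lost without dKO library 1 or 2 or MED23KO library 1 or 2 (adjusted p = 0.0709 to 0.162).

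MED23 knockout in HDAC3 knockout cells lowered 6 of the 9, with 0 higher, against 17.2% higher and 18.3% lower. HLA-B fell by 1.05 ± 0.045, 1 gene of the 9 past 2-fold (3.93% of all genes), HLA-C by 0.79 ± 0.065, HLA-E by 0.59 ± 0.049, NLRC5 by 0.39 ± 0.096, TAPBP by 0.23 ± 0.055 and TAP2 by 0.21 ± 0.065, the TAP2 call being lost without dKO library 2 (adjusted p = 0.0904) or HDAC3KO library 3 (adjusted p = 0.060). The double knockout against Ctrl had 1 gene higher and 2 lower, against 18.2% and 18.4%. HLA-B read 118.6, 121.8 and 111.0 CPM against 117.2 to 121.8 in Ctrl (-0.03 ± 0.045, adjusted p = 0.661), HLA-C was -0.13 ± 0.065 and HLA-E -0.01 ± 0.049. B2M was higher (0.49 ± 0.079), NLRC5 lower (-0.49 ± 0.093) and TAP2 lower (-0.18 ± 0.064), the TAP2 call being lost without Ctrl library 1 or dKO library 1 or 2 (adjusted p = 0.077 to 0.157). The interaction of the 2 knockouts lowered 4 of the 9 and raised 0, against 10.0% and 10.5%: NLRC5 (-0.68 ± 0.13), TAPBP (-0.48 ± 0.076), HLA-C (-0.28 ± 0.091) and HLA-B (-0.25 ± 0.063). The HLA-C call was lost without Ctrl library 1, 2 or 3, dKO library 3, HDAC3KO library 2 or MED23KO library 1 or 2 (adjusted p = 0.0503 to 0.118).

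MED23 knockout was measured in 3 experiments with separate controls. HLA-B, HLA-C and HLA-E fell in all 3, and TAPBP and NLRC5 rose in all 3, while 11.2% of the 17953 genes tested in all 3 fell and 11.8% rose in all 3. In the HDAC3 experiment the NLRC5 call was lost without Ctrl library 3 (adjusted p = 0.121) or MED23KO library 1 (adjusted p = 0.0926). TAP1, TAP2 and PSMB9 passed in none. HLA-B stood at 51.8%, 61.1% and 57.3% of control in the Mediator, SOX10 and HDAC3 experiments.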

How the data were processed

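The members and lists were chosen with earlier results of these data known. The deposited values are raw counts of reads per gene that the authors made with bcl2fastq, HISAT2, hg38 and HTSeq, per the submitters' processing notes; no version, annotation or strand setting is named there. Per the labels' protocols, libraries were made with a stranded mRNA kit. Of the sample columns, 15 carry another name than the sample's title: the GFP columns of the HDAC3 table were taken as Ctrl, because no other group was left, and the MED23 guide of the SOX10 table as MED23sg1. Gene names came from GENCODE 29 (58676 of 58721 identifiers matched).

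Each table was fitted on its own with edgeR 4.0.16 in R 4.3.3: TMM scaling, filterByExpr (minimum count 10, total 15), 1 mean per group with the 2 guides of a subunit weighted equally, the quasi-likelihood test and Benjamini-Hochberg adjustment over all genes kept (27453, 18009 and 21139). No pair of libraries agreed within sampling noise (lowest chi-square per gene 1.51). The rule for pairing was that every pair's correlation of deviations is over 0.1. Samples with the same replicate number met it only for HDAC3 knockout in MED23 knockout cells (mean 0.218). There the numbers were taken to pair the samples, and the replicate block changed no call of the 9 genes. Some other HDAC3 comparisons missed the rule with similar or higher means. HDAC3 knockout in control cells had 0.312 (lowest 0.0924), MED23 knockout 0.231 (lowest -0.0807) and the interaction 0.214. The main fits held no replicate block. The labels name no shared day or batch for a number.

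All 9 genes are named. Of each list the counts that rose and fell are given, with up to 4 members of the largest change that passed and members that moved against them; the genes most like the 9 are the 8 with the highest correlation. Alternatives were DESeq2 1.42.0 and its size factors, no filter, guides alone, the compared groups alone, the replicate block, a 2-fold rule, the longest transcript for lengths, and leaving out each library. The 4 MED12 libraries numbered 2 were left out as an alternative added after the data were seen. A regulator and a blood cell marker are counted in their lists but not reported here.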

Additional observations from a re-analysis of the deposited data

Results flagged for a closer look

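The interaction terms of the 3 designs, tested with edgeR's quasi-likelihood test, passed for 20 of 45 gene and comparison pairs. Over all genes, 24.9% passed upward and 24.2% downward with MED12, 17.4% and 15.2% with MED19, 18.5% and 16.2% with MED23, 7.64% and 7.04% with SOX10, and 10% and 10.5% with HDAC3. With vemurafenib and MED12 knockout, HLA-B (0.48), HLA-C (0.33) and TAP2 (0.17) had positive terms, and HLA-E (-0.35), TAP1 (-0.36), TAPBP (-0.33), PSMB9 (-0.31) and NLRC5 (-0.42) negative ones. With MED19 knockout, HLA-B (0.48) and HLA-C (0.40) had positive terms, and with MED23 knockout HLA-B (0.52) and HLA-C (0.43) did. These 3 tests share the 6 control libraries.

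With SOX10 overexpression and MED23 knockout, the interaction was -0.19 for HLA-B, -0.28 for HLA-C, -0.45 for TAPBP and -0.40 for NLRC5. With HDAC3 and MED23 knockout it was -0.25 for HLA-B, -0.28 for HLA-C, -0.48 for TAPBP and -0.68 for NLRC5. Several of these calls rest on single libraries. In the SOX10 experiment HLA-B was lost without any of 5 libraries (adjusted p = 0.0541 to 0.166) and NLRC5 without any of 3 (adjusted p = 0.0509 to 0.0519), and in the HDAC3 experiment HLA-C was lost without any of 7 (adjusted p = 0.0503 to 0.118). In the double knockout HLA-B stood at 98.0% of control (adjusted p = 0.661, which did not pass) and NLRC5 at 71.4% (adjusted p = 0.000251).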

How the results depend on the processing

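No called value of the 9 genes changed sign under the alternatives run. With 1 library left out, 2351 values of single genes kept their side of the threshold, 62 lost the call and 17 gained it. In leave-one-out fits the count of members that rose or fell moved by over 1.5 times for MED23 knockout with SOX10 overexpression against control (rose, 0 to 1), the SOX10 interaction (fell, 2 to 5), MED23 knockout in the HDAC3 experiment (rose, 1 to 2), MED23 knockout in HDAC3 knockout cells (rose, 0 to 1), the double knockout (fell, 1 to 2, and rose, 1 to 2) and the MED19 interaction (fell, 0 to 1). Other counts moved by less or not at all. With only the groups compared, 2 members fell with vemurafenib in control cells, 2 fell in the MED19 interaction, 4 rose in the MED23 interaction and 1 fell in the double knockout. With no filter on low counts, 4 rose in the MED23 interaction. The cause was not tested. With the replicate block, 2 rose in the double knockout. Single calls gained with the block were HLA-C (adjusted p = 0.0265) and PSMB9 (adjusted p = 0.0472) in the double knockout, PSMB9 in MED23 knockout in DMSO (adjusted p = 0.0289), NLRC5 with vemurafenib in MED12 knockout cells (adjusted p = 0.0334), TAP1 with SOX10 in MED23 knockout cells (adjusted p = 0.0349) and B2M in the SOX10 interaction (adjusted p = 0.0117). These comparisons did not meet the rule for pairing, that every pair correlates over 0.1. For vemurafenib in MED12 knockout cells 66.67% of 18 pairs did (mean correlation 0.133), and the library numbered 2 was the highest there for all 9 genes.

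Single libraries also decided calls that were not reached with all of them. HLA-C rose with SOX10 in MED23 knockout cells without overexpression library 1 (0.14, adjusted p = 0.00433). B2M fell with MED23 knockout in HDAC3 knockout cells without HDAC3KO library 1 (-0.21, adjusted p = 0.0165). PSMB9 rose there without dKO library 3 (0.30, adjusted p = 0.0325) and in the double knockout without the same library (0.34, adjusted p = 0.0139). Under the rule of at least a 2-fold change, 4 members rose with MED12 knockout in DMSO, 4 under vemurafenib, 2 in MED12 against MED19, 6 in MED12 against MED23, 1 in MED19 against MED23 and 1 with HDAC3 knockout, 1 fell with MED23 knockout in HDAC3 knockout cells, and 0 elsewhere. Some members in each of the MED12 counts were below 2-fold without the 4 MED12 libraries numbered 2, as given above. The interferon genes IFNB1, IFNG, IFNL1, IFNL2 and IFNL3 had at most 20 counts in any library, which limits what can be read from them.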
